A study of Mus musculus with 12 samples.

Results

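Wnt ligands, their receptors, the secreted inhibitors that hold them back, and the genes that carry or answer the signal were followed on 12 Affymetrix arrays of mouse D3 embryonic stem cells. The set took every gene of the platform annotation named as a Wnt, Fzd, Dkk or Sfrp family member, together with Axin2, Lef1, Tcf7l1, Tcf7l2, Ctnnb1, Lrp5, Lrp6, Nkd1, Sp5, Lgr5, Notum and Porcn, and each gene was read through its probe set with the highest mean over the 12 arrays. It found 49 genes among 18193 with a probe set of their own. Tcf7, which belongs to the same family of factors, was not analysed here. The cells had been kept on a feeder layer of MMC-treated mouse embryonic fibroblasts and were differentiated as embryo bodies. There were 4 groups of 3 arrays. NP day8 cells were differentiated D3 cells with the agent NP, BPA day8 cells were differentiated D3 cells with the agent BPA, control day8 cells were differentiated D3 cells with no agent, and control day0 cells were undifferentiated D3 cells with no agent. All groups therefore share a cell line and a feeder culture. The labels do not spell out BPA, NP or MMC, and they give no dose, no vehicle and no time at which an agent was added. Nothing in them tells if replicates came from different cultures, and the p-values speak of the spread among these samples alone, which may be technical.

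Wnt proteins are secreted signals that carry a lipid, which Porcn attaches before they leave the cell. They bind Frizzled receptors together with Lrp5 or Lrp6, and in the canonical branch this stops the destruction of β-catenin, the product of Ctnnb1, which then joins Tcf and Lef factors on target genes. Dkk proteins, Sfrp proteins and Notum act outside the cell to limit the signal, and Axin2 and Nkd1 limit it inside the cell as part of negative feedback. In mouse embryos the pathway is known for its roles in forming the primitive streak and mesoderm, and in embryonic stem cells for its support of self-renewal, where Tcf7l1 acts mainly as a repressor.

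Values are log2 of the MAS5 signal of a probe set, so a difference of 1 is a doubling, and probe sets of different genes were not set against each other. Values at or under 3.41, the highest of 36 readings of bacterial control probe sets (a signal of 10.6), were taken as background. Of the 49 genes, 39 had a probe set in the brightest 60% and were tested: 12 of 20 ligands with Porcn counted among them, 12 of 13 receptors, 8 of 9 secreted inhibitors, all 4 nuclear effectors and all 3 feedback and target genes. Tests were made with limma over 13067 genes with Benjamini-Hochberg adjustment, and a gene is said to have risen or fallen only where its adjusted p was under 0.05. The arrays correlated at 0.811 to 0.871 with each other over all probe sets and at 0.854 to 0.871 within groups.

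The label of embryonic stem cells was checked against markers. The summed signal of 8 pluripotency markers was 16466 to 21958 on NP day8 arrays, 20001 to 20884 on BPA day8 arrays, 3396 to 6932 on control day8 arrays and 28003 to 28713 on control day0 arrays. On control day0 arrays 3 of the 8 visceral endoderm markers, Afp, Ttr and Hnf4a, were at background on every array. Fibroblast and feeder markers, 8 genes such as Col1a1 and Postn, summed to 1402 to 2276 on NP day8 arrays, 1738 to 2156 on BPA day8 arrays, 8631 to 11604 on control day8 arrays and 9137 to 10703 on control day0 arrays. RNA of feeder cells and of embryonic stem cells cannot be told apart on these arrays. The arrays measured whole cultures, in which fewer cells of a type and less RNA per cell cannot be told apart.

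In control day8 against control day0 cells, the Wnt set moved mostly upwards. Of the 39 tested members, 22 rose and 4 fell, against 28.3% and 20.5% of all genes tested. Those that rose included 8 ligands (Wnt1, Wnt2, Wnt4, Wnt5a, Wnt5b, Wnt6, Wnt7b and Wnt11), 7 receptors (Fzd1, Fzd2, Fzd3, Fzd4, Fzd7, Fzd8 and Lrp6), the inhibitors Dkk1, Sfrp1 and Sfrp5, the nuclear effectors Ctnnb1, Tcf7l1 and Tcf7l2, and the feedback gene Nkd1. Those that fell were Porcn, Wnt9a, Fzd5 and Notum. The median log2 change of the members was 0.92, or 0.74 with values under background raised to it, while that of all genes tested was 0.12. Together the calls made up 66.7% of the tested members, against 48.7% of all genes. Arrays of control day8 and control day0 cells were fully separate in 26 of 39 members, against 56.8% of all genes.

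In BPA day8 against control day8 cells, 2 members rose, 11 fell and 26 did not pass the test, against 12% of all genes higher, 10.2% lower and 22.2% called in either direction. Porcn and Notum rose, and Wnt2, Wnt5a, Fzd1, Fzd2, Fzd4, Fzd7, Dkk1, Dkk2, Sfrp1, Sfrp5 and Lef1 fell. The members' median log2 change was -0.64, or -0.57 with values raised to background, and that of all genes was 0.04. Groups did not overlap in 25 of 39 members, against 41.6% of all genes.

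In NP day8 against control day8 cells, 3 members rose, 8 fell and 28 did not pass the test, against 7.90% of all genes higher, 6.28% lower and 14.2% called in either direction. Porcn, Notum and Fzd5 rose, and Wnt2, Wnt5a, Fzd1, Fzd2, Dkk1, Dkk2, Dkk3 and Sfrp1 fell. The median log2 change was -0.37 over the members, or -0.32 with values raised to background, and 0.01 over all genes. Groups did not overlap in 18 of 39 members, against 34.8% of all genes. The NP and BPA comparisons share the 3 control day8 arrays, so their lists are not independent of each other, nor of the comparison of control day8 with control day0.

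**Figure D1:**
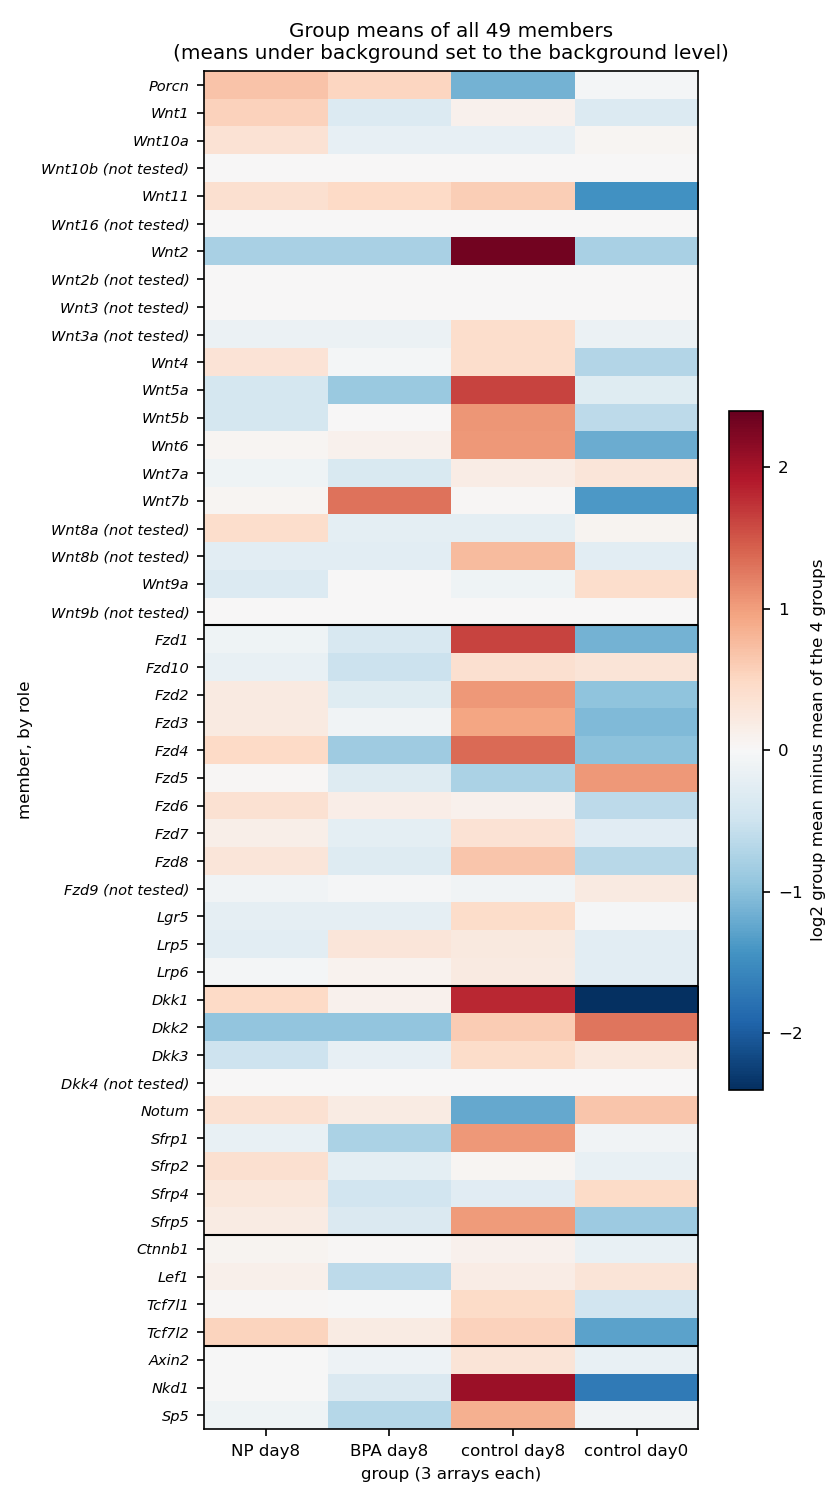
Mean log2 signal of each of the 49 members in NP day8, BPA day8, control day8 and control day0 cells (columns from left to right, n = 3 arrays each), drawn as the difference from the mean of the 4 groups, red higher and blue lower, with means at or under the background of 3.41 set to that level. Members are ordered by role (rows), and Wnt5a, Fzd1, Dkk1 and Nkd1 are red in control day8 and blue in control day0.

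Promoter sequences from RefSeq's table (build GRCm38.p6, 250 bases before to 50 after the gene start) were searched for 32 of the 49 members, with 40 promoters between them. The search of members did not cover every chromosome, while the set of all promoters was not limited in this way. The 4 members with a searched promoter whose fall with BPA held whichever array was left out are printed as examples of those that fell. Sp5 is shown because it held more copies of the Tcf and Lef core than any other member searched. Capitals mark the core, CTTTGA or CTTTGT on either strand, and each sequence runs 5′ to 3′ along the gene. Each lies upstream of and across the annotated start, so its last part is transcribed.
Wnt2, chr6:18030396-18030695, minus strand: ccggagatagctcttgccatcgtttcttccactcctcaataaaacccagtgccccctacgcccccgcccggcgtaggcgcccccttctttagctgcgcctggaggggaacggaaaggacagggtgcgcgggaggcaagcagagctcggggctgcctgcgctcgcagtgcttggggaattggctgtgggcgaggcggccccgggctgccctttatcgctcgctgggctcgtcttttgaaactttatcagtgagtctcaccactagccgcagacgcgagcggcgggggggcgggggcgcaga
Fzd1, chr5:4758167-4758466, minus strand: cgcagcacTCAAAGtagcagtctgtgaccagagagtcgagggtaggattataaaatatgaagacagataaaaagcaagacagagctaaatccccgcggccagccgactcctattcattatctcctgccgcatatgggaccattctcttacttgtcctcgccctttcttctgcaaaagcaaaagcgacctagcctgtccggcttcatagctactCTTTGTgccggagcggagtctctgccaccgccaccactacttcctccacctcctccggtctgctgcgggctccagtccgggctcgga
Fzd4, chr7:89404116-89404415, plus strand: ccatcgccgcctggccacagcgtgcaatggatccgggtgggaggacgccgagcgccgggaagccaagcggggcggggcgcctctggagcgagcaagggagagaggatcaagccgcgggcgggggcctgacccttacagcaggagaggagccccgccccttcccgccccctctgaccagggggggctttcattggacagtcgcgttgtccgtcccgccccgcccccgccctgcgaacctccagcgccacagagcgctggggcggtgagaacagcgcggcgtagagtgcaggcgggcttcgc
Dkk1, chr19:30549447-30549746, minus strand: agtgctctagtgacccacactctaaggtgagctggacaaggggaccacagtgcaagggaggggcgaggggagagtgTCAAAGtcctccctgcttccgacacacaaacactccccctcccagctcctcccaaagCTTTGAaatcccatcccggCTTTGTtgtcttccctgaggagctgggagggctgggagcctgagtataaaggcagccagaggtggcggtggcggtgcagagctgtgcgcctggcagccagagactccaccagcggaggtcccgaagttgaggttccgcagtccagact
Sp5, chr2:70474673-70474972, plus strand: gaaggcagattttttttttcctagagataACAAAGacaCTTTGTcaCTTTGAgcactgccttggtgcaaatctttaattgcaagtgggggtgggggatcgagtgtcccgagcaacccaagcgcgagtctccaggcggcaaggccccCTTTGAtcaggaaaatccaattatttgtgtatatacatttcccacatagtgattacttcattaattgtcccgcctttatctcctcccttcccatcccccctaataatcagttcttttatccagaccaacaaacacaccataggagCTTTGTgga
The window held 5 cores at Sp5, 3 at Dkk1 and 2 at Fzd1, and no core at Wnt2 or Fzd4. Over the members, 12 of 40 promoters (30.0%) held a core, against 10249 of 32851 promoters in the table (31.2%). The members' promoters were rich in GC: GGGCGG on either strand was found in 72.5% of them, against 35.7% of all promoters, and the median GC content was 67.3%, against 52.7%. A match is a description of letters in this window and was not tested against the expression values.

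Among the ligands, Porcn, the acyltransferase that Wnt secretion needs, ran against most others. Its log2 signal was 6.34, 6.95 and 6.89 on NP day8 arrays, 6.41, 6.74 and 6.54 on BPA day8 arrays, 4.66, 4.87 and 5.21 on control day8 arrays and 6.06, 5.95 and 5.99 on control day0 arrays. The 3 control day8 arrays were the lowest of the 12, and every NP and BPA array lay above every array of both control groups. Porcn fell by 1.08 ± 0.19 on the log2 scale (SE; adjusted p = 0.00113) in control day8 against control day0 cells. It was 3.52-fold higher in NP day8 than in control day8 cells (log2 change 1.81 ± 0.19, adjusted p = 0.000781) and 3.13-fold higher in BPA day8 than in control day8 cells (log2 change 1.65 ± 0.19, adjusted p = 0.000618).

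Wnt2, a canonical ligand known in heart, lung and vessel development, read 0.08, 0.67 and -1.0 on NP day8 arrays, 3.73, -0.63 and 3.41 on BPA day8 arrays, 6.38, 6.41 and 6.70 on control day8 arrays and 3.83, 3.25 and 2.92 on control day0 arrays. Control day8 stood alone at the top, all 3 NP arrays were at background, and a single array in each of the BPA and control day0 groups was above it. The differences are therefore bounds, taken with values under background raised to it. The mean of Wnt2 over the 12 arrays was 2.98, and only control day8 had a group mean above background. It thus passed the brightness filter through control day8, the group in which it was high. Wnt2 was at least 8.51-fold lower in NP day8 than in control day8 cells (adjusted p = 0.00324), at least 7.90-fold lower in BPA day8 than in control day8 cells (adjusted p = 0.0125), and at least 7.72-fold higher in control day8 than in control day0 cells (adjusted p = 0.023).

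Wnt5a, best known for the branch that does not use β-catenin, measured 6.48, 5.21 and 4.83 on NP day8 arrays, 4.70, 5.82 and 4.59 on BPA day8 arrays, 7.92, 7.56 and 7.13 on control day8 arrays and 6.11, 5.20 and 5.57 on control day0 arrays. Both agents' arrays lay below all control day8 arrays and overlapped those of control day0. The log2 change was -2.03 ± 0.47 with NP (adjusted p = 0.0219), -2.50 ± 0.47 with BPA (adjusted p = 0.00567) and 1.91 ± 0.47 in control day8 against control day0 cells (adjusted p = 0.00811). Leaving out control day8 replicate 1 or 2, or NP replicate 2 or 3, took the adjusted p of Wnt5a with NP to as much as 0.0811.

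Wnt5b, a close relative of Wnt5a, was at 4.66, 2.39 and 3.78 on NP day8 arrays, 3.55, 4.66 and 3.93 on BPA day8 arrays, 4.97, 5.44 and 4.90 on control day8 arrays and at background on control day0 arrays, with readings of 2.53, 2.68 and 3.17. It was at least 3.24-fold higher in control day8 than in control day0 cells (adjusted p = 0.00434). The NP and BPA arrays all lay under those of control day8, but neither difference passed the test (log2 change -1.49 ± 0.51, adjusted p = 0.0844 with NP, and -1.05 ± 0.51, adjusted p = 0.173 with BPA). Wnt6 read 4.90, 4.92 and 4.11 on NP day8 arrays, 4.43, 4.54 and 5.16 on BPA day8 arrays, 5.52, 5.55 and 5.87 on control day8 arrays and 3.84, 4.26 and -0.04 on control day0 arrays. The last reading stood far below its fellows. Wnt6 was at least 3.51-fold higher in control day8 than in control day0 cells (adjusted p = 0.0232). With the agents it showed log2 changes of -1.0 (adjusted p = 0.524 with NP) and -0.94 (adjusted p = 0.513 with BPA, or 0.0478 with the compared groups alone).

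Of the other ligands, Wnt4, which acts in kidney and gonad development, averaged 6.20 ± 0.34 in control day8 and 5.08 ± 0.45 in control day0 cells (SD, n = 3 each; log2 change 1.12 ± 0.24, adjusted p = 0.00402, or 0.0585 with the mean of its probe sets). Wnt11, a ligand of the non-canonical branch known in heart development, averaged 5.65 ± 0.65 in NP day8, 5.73 ± 0.19 in BPA day8, 5.85 ± 0.54 in control day8 and 3.81 ± 1.40 in control day0 cells. It rose with differentiation (log2 change 2.04 ± 0.62, adjusted p = 0.0213). Unlike the values of Wnt2 and Wnt5a those of Wnt11 overlapped between agents and control day8, with 95% intervals of -1.59 to 1.19 for NP and -1.51 to 1.27 for BPA. Wnt1 was at least 1.34-fold higher in control day8 than in control day0 cells (adjusted p = 0.0255), where it was at background on all arrays. Wnt9a was 1.44-fold lower in control day8 cells (log2 change -0.53 ± 0.17, adjusted p = 0.0248). Wnt7a and Wnt10a passed no test, with group means from 2.82 to 4.05.

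Wnt7b, a canonical ligand of lung and placenta, stood out in BPA day8 cells. It read 5.43, 5.74 and 4.78 on NP day8 arrays, 6.67, 6.53 and 6.52 on BPA day8 arrays, 5.79, 4.99 and 5.12 on control day8 arrays and 3.99, 2.74 and 4.97 on control day0 arrays. The BPA arrays lay above the other 9, yet the differences from control day8 (log2 change 1.27 ± 0.49, adjusted p = 0.0921, or 0.0221 with the compared groups alone) and from NP (log2 change -1.26 ± 0.49 for NP against BPA, adjusted p = 0.535) did not pass the test on all 12 arrays. A dimmer probe set of Wnt7b gave the opposite sign for BPA, with means of 3.60 in BPA day8 and 4.24 in control day8 cells. Wnt7b rose in control day8 against control day0 cells (log2 change 1.40 ± 0.49, adjusted p = 0.0382).

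The control day8 against control day0 calls of 6 ligands were lost on leaving out any of several arrays, while the direction stayed. The highest adjusted p on leaving out an array was 0.0932 for Wnt1 (control day0 replicate 2 or control day8 replicate 1), 0.0677 for Wnt11 (control day8 replicate 1 or 3), 0.064 for Wnt2 (control day0 replicate 2 or 3, or any control day8 array), 0.0603 for Wnt6 (any control day8 array), 0.0692 for Wnt9a (replicates 2 and 3 of both groups) and 0.123 for Wnt7b (replicate 1 or 2 of control day0, any control day8 or BPA array, or NP replicate 1). Over all 12 arrays left out in turn, the log2 change stayed between 2.96 and 3.41 for Wnt2 and between -0.58 and -0.49 for Wnt9a. It stayed between 0.82 and 1.22 for Wnt1, 1.23 and 2.51 for Wnt11, 1.60 and 3.75 for Wnt6 and 0.82 and 1.94 for Wnt7b.

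**Figure D2:**
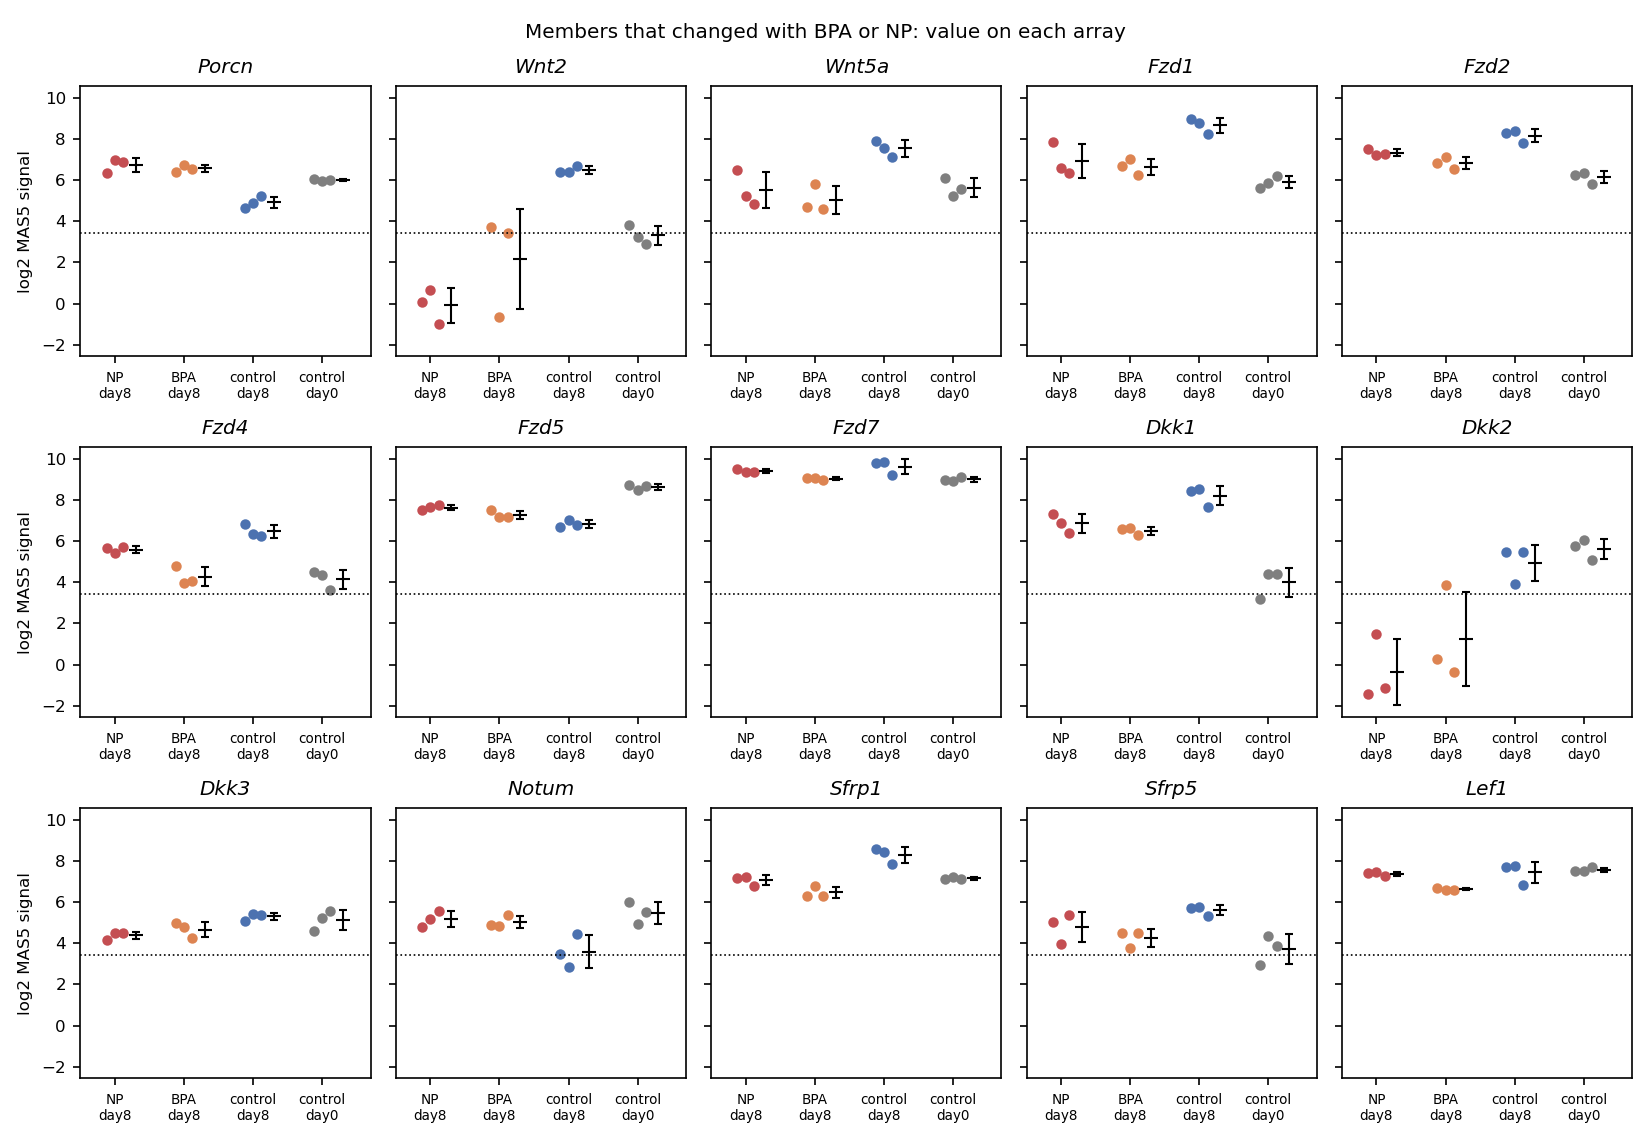
Log2 signal on each of the 12 arrays for the members that rose or fell with NP or BPA. Points are arrays, the tick with whiskers is the group mean ± SD, the dotted line is the background of 3.41, and the groups run NP day8, BPA day8, control day8 and control day0 from left to right. Porcn, Notum and Fzd5 have their lowest group mean in control day8, and Wnt2, Fzd1, Fzd2, Fzd4 and Dkk1 have their highest there.

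Frizzled receptors include both members that rose and 1 that fell with differentiation. Fzd1 was at 7.86, 6.57 and 6.34 on NP day8 arrays, 6.66, 7.02 and 6.25 on BPA day8 arrays, 8.95, 8.79 and 8.22 on control day8 arrays and 5.63, 5.87 and 6.20 on control day0 arrays. Agent-treated cells lay between the control groups, without touching the arrays of either. Fzd1 was 3.31-fold lower with NP (log2 change -1.73 ± 0.39, adjusted p = 0.0195), 4.02-fold lower with BPA (log2 change -2.01 ± 0.39, adjusted p = 0.00628) and 6.73-fold higher in control day8 than in control day0 cells (log2 change 2.75 ± 0.39, adjusted p = 0.000341).

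Fzd2 gave 7.51, 7.21 and 7.25 on NP day8 arrays, 6.81, 7.10 and 6.54 on BPA day8 arrays, 8.29, 8.37 and 7.79 on control day8 arrays and 6.26, 6.36 and 5.80 on control day0 arrays. The 4 groups did not overlap. The log2 change was -0.82 ± 0.21 with NP (adjusted p = 0.0329), -1.33 ± 0.21 with BPA (adjusted p = 0.0027) and 2.01 ± 0.21 in control day8 against control day0 cells (adjusted p = 6.36e-05). Fzd4, which also serves as the receptor of the ligand Norrin in vessels, had 5.66, 5.41 and 5.69 on NP day8 arrays, 4.79, 3.97 and 4.04 on BPA day8 arrays, 6.82, 6.36 and 6.23 on control day8 arrays and 4.49, 4.33 and 3.61 on control day0 arrays. BPA arrays fell within or just above the range of control day0, and NP arrays lay between the 2 control groups. Fzd4 was 4.62-fold lower with BPA (log2 change -2.21 ± 0.28, adjusted p = 0.00098) and 5.03-fold higher in control day8 than in control day0 cells (log2 change 2.33 ± 0.28, adjusted p = 0.000142), while with NP it changed by -0.89 ± 0.28 (adjusted p = 0.0693). Another Fzd4 probe set, with a mean of 4.98 against 5.12, changed by -1.07 with NP and -1.40 with BPA.

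Fzd5 ran the other way. Its arrays read 7.48, 7.64 and 7.74 in NP day8, 7.52, 7.17 and 7.15 in BPA day8, 6.69, 7.04 and 6.79 in control day8 and 8.74, 8.47 and 8.67 in control day0 cells. Control day0 was the highest group and control day8 the lowest, with no overlap of either with the agents. Fzd5 was 3.45-fold lower in control day8 than in control day0 cells (log2 change -1.79 ± 0.14, adjusted p = 1.6e-05) and 1.72-fold higher in NP day8 than in control day8 cells (log2 change 0.78 ± 0.14, adjusted p = 0.00818). With BPA the log2 change of 0.44 ± 0.14 did not pass (adjusted p = 0.0545). The rise of Fzd5 with NP was lost when its probe sets were averaged (adjusted p = 0.249).

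Fzd3, which acts in axon guidance and planar polarity, was at 7.17, 6.84 and 6.45 on NP day8 arrays, 6.54, 7.10 and 5.91 on BPA day8 arrays, 7.75, 8.23 and 6.69 on control day8 arrays and 5.25, 5.63 and 5.76 on control day0 arrays. It rose with differentiation (log2 change 2.01 ± 0.41, adjusted p = 0.00276), and control day8 overlapped both agents. Its 3 dimmer probe sets above background changed by only -0.09 to 0.46, and the mean of its probe sets by 0.66 (adjusted p = 0.0104). Fzd8 read 5.66, 5.48 and 5.35 on NP day8 arrays, 5.06, 5.07 and 4.56 on BPA day8 arrays, 6.01, 5.72 and 5.86 on control day8 arrays and 5.09, 3.47 and 5.07 on control day0 arrays. Its rise in control day8 against control day0 cells (log2 change 1.32 ± 0.38, adjusted p = 0.0163) was lost without control day8 replicate 1 (adjusted p = 0.0507). The agents' arrays lay below those of control day8 without passing the test (log2 change -0.37 ± 0.38, adjusted p = 0.574 with NP, and -0.97 ± 0.38, adjusted p = 0.0981 with BPA, or 0.0244 with the compared groups alone).

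Fzd7 averaged 9.41 ± 0.08 in NP day8, 9.03 ± 0.07 in BPA day8, 9.61 ± 0.36 in control day8 and 9.0 ± 0.10 in control day0 cells (SD, n = 3 each). It rose in control day8 against control day0 cells (log2 change 0.61 ± 0.16, adjusted p = 0.0113, or 0.0631 with the compared groups alone). Fzd7 fell with BPA (log2 change -0.57 ± 0.16, adjusted p = 0.0319). The adjusted p with BPA reached as much as 0.113 without any of the BPA arrays or without control day8 replicate 1 or 2. The co-receptor Lrp6 rose by 0.46 ± 0.15 on the log2 scale in control day8 against control day0 cells (adjusted p = 0.0253, and up to 0.086 without replicate 1 or 2 of either group). Lrp5, Lgr5, Fzd6 and Fzd10 passed no test. Lgr5, a receptor of R-spondins, was at background on all 3 BPA day8 arrays and above it on all 3 control day8 arrays, with means of 3.03 ± 0.13 and 4.06 ± 0.40. Fzd6 missed the threshold in control day8 against control day0 cells (log2 change 0.74 ± 0.28, adjusted p = 0.0508). The calls of Fzd1 and Fzd2 with NP reached adjusted p of 0.0743 and 0.11 when control day8 replicate 1 or 2, NP replicate 2 or 3 or, for Fzd2, BPA replicate 1 was left out.

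**Figure D3:**
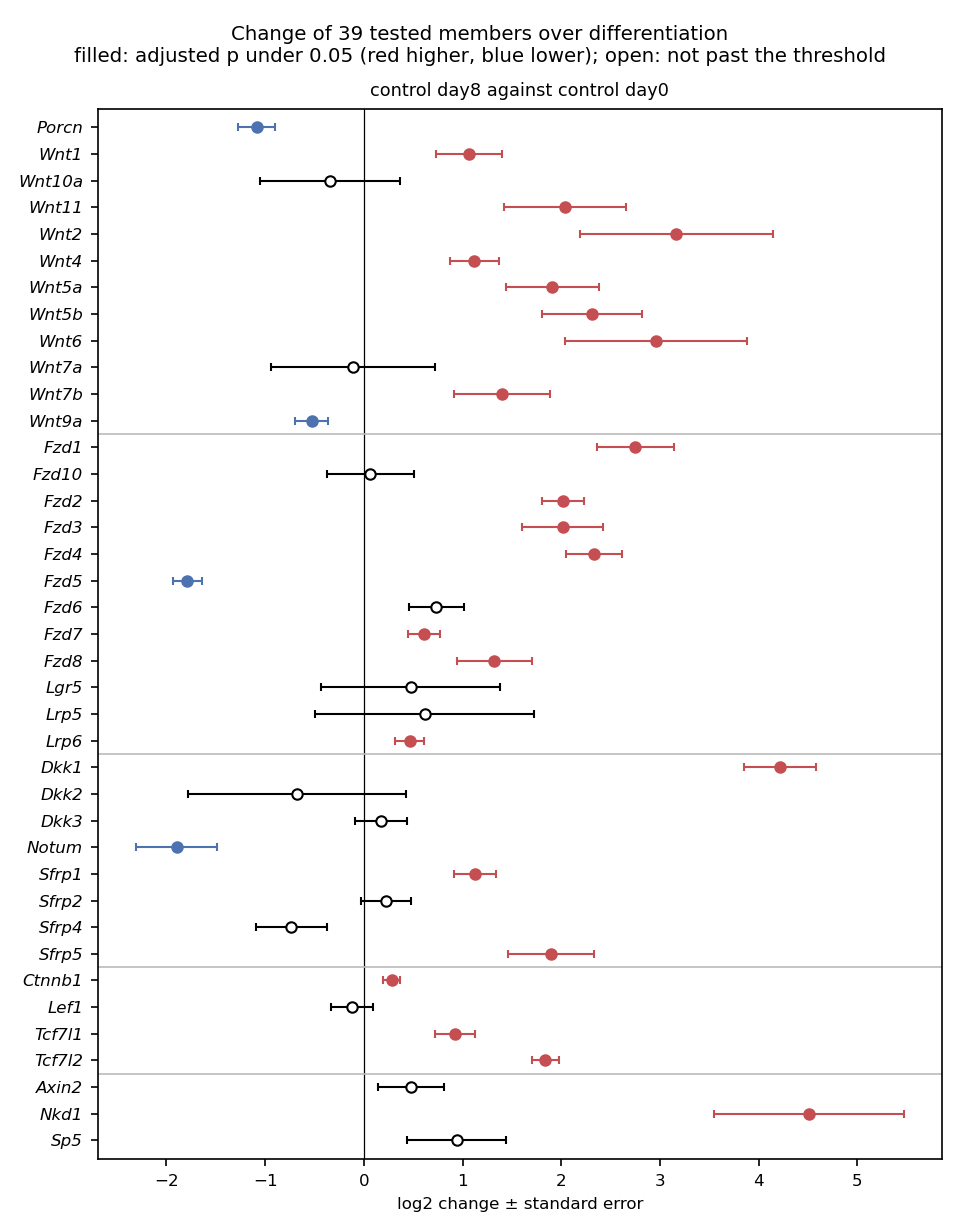
Log2 change of the 39 tested members in control day8 against control day0 cells, with standard errors, in role order from ligands at the top to feedback and target genes at the bottom. Filled points had an adjusted p under 0.05 (22 higher in red, 4 lower in blue), and open points did not.

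Among the secreted inhibitors, Dkk1, Sfrp1 and Dkk2 fell with both agents and Notum rose with both. Dkk1, which blocks Lrp5 and Lrp6, read 7.29, 6.89 and 6.39 on NP day8 arrays, 6.60, 6.62 and 6.27 on BPA day8 arrays, 8.42, 8.52 and 7.67 on control day8 arrays and 3.19, 4.39 and 4.39 on control day0 arrays. The agents' arrays lay below control day8 but far above control day0. Dkk1 was 2.54-fold lower with NP (log2 change -1.35 ± 0.37, adjusted p = 0.0392), 3.26-fold lower with BPA (log2 change -1.71 ± 0.37, adjusted p = 0.00997) and 18.6-fold higher in control day8 than in control day0 cells (log2 change 4.22 ± 0.37, adjusted p = 2.41e-05). The NP call rose to an adjusted p of 0.131 on leaving out any BPA array, NP replicate 2 or 3, or control day8 replicate 1 or 2.

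Sfrp1, which binds Wnt proteins outside the cell, was at 7.16, 7.24 and 6.78 on NP day8 arrays, 6.30, 6.80 and 6.31 on BPA day8 arrays, 8.56, 8.42 and 7.84 on control day8 arrays and 7.13, 7.21 and 7.10 on control day0 arrays. All BPA arrays were under both control groups, whereas NP arrays overlapped control day0. Sfrp1 was 2.32-fold lower with NP (log2 change -1.21 ± 0.21, adjusted p = 0.00683), 3.49-fold lower with BPA (log2 change -1.80 ± 0.21, adjusted p = 0.000671) and 2.18-fold higher in control day8 than in control day0 cells (log2 change 1.12 ± 0.21, adjusted p = 0.00181). Fitted on the compared groups alone, the call with NP missed the threshold (adjusted p = 0.0514).

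Dkk2, a relative of Dkk1, fell to background. It read -1.43, 1.49 and -1.13 on NP day8 arrays, 0.27, 3.86 and -0.36 on BPA day8 arrays, 5.46, 3.93 and 5.46 on control day8 arrays and 5.77, 6.04 and 5.08 on control day0 arrays. Every NP array was at background, as were all BPA arrays but replicate 2, and the control groups overlapped each other. The mean of Dkk2 over the 12 arrays, 2.87, was the lowest of the tested members. It thus passed the brightness filter through the control groups, where it was high. Dkk2 was at least 2.92-fold lower in NP day8 than in control day8 cells (adjusted p = 0.0142) and at least 2.63-fold lower in BPA day8 than in control day8 cells (adjusted p = 0.0399). The first call was lost without control day8 replicate 1 or NP replicate 3 (adjusted p up to 0.0559), and the second without any control array or BPA replicate 1 or 3 (up to 0.129).

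Notum, an enzyme that strips the lipid from Wnt proteins, shared the direction of Porcn. Its signal was 4.80, 5.20 and 5.56 on NP day8 arrays, 4.86, 4.85 and 5.37 on BPA day8 arrays, 3.48, 2.84 and 4.46 on control day8 arrays and 6.01, 4.94 and 5.51 on control day0 arrays. Control day8 was the lowest group, and the other 3 groups overlapped. Notum was 3.01-fold higher with NP (log2 change 1.59 ± 0.41, adjusted p = 0.0326), 2.70-fold higher with BPA (log2 change 1.43 ± 0.41, adjusted p = 0.0335) and 3.72-fold lower in control day8 than in control day0 cells (log2 change -1.90 ± 0.41, adjusted p = 0.00397). Leaving out control day8 replicate 1 or 2 ended both agents' calls, as did NP replicate 2 or 3 for NP and any BPA array for BPA, with adjusted p up to 0.109 and 0.106.

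Sfrp5 had 5.01, 3.95 and 5.39 on NP day8 arrays, 4.49, 3.76 and 4.49 on BPA day8 arrays, 5.73, 5.78 and 5.33 on control day8 arrays and 2.94, 4.35 and 3.87 on control day0 arrays. NP overlapped control day8 and BPA did not. It rose with differentiation (log2 change 1.89 ± 0.43, adjusted p = 0.00525) and fell with BPA (log2 change -1.37 ± 0.43, adjusted p = 0.049, and up to 0.148 without control day0 replicate 3, any control day8 or BPA array, or NP replicate 1). Dkk3, a divergent member of the Dkk family, was at 4.16, 4.48 and 4.50 on NP day8 arrays, 4.97, 4.80 and 4.23 on BPA day8 arrays, 5.10, 5.43 and 5.39 on control day8 arrays and 4.59, 5.24 and 5.56 on control day0 arrays. All NP arrays lay below every control array. The fall with NP (log2 change -0.93 ± 0.26, adjusted p = 0.0451) was lost on leaving out any of 9 arrays, that is control day0 replicate 2, BPA replicate 1 or 2, or any control day8 or NP array (up to 0.124). Sfrp2 and Sfrp4 passed no test, with group means of 6.56 to 7.19 and 4.23 to 5.15.

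**Figure D4:**
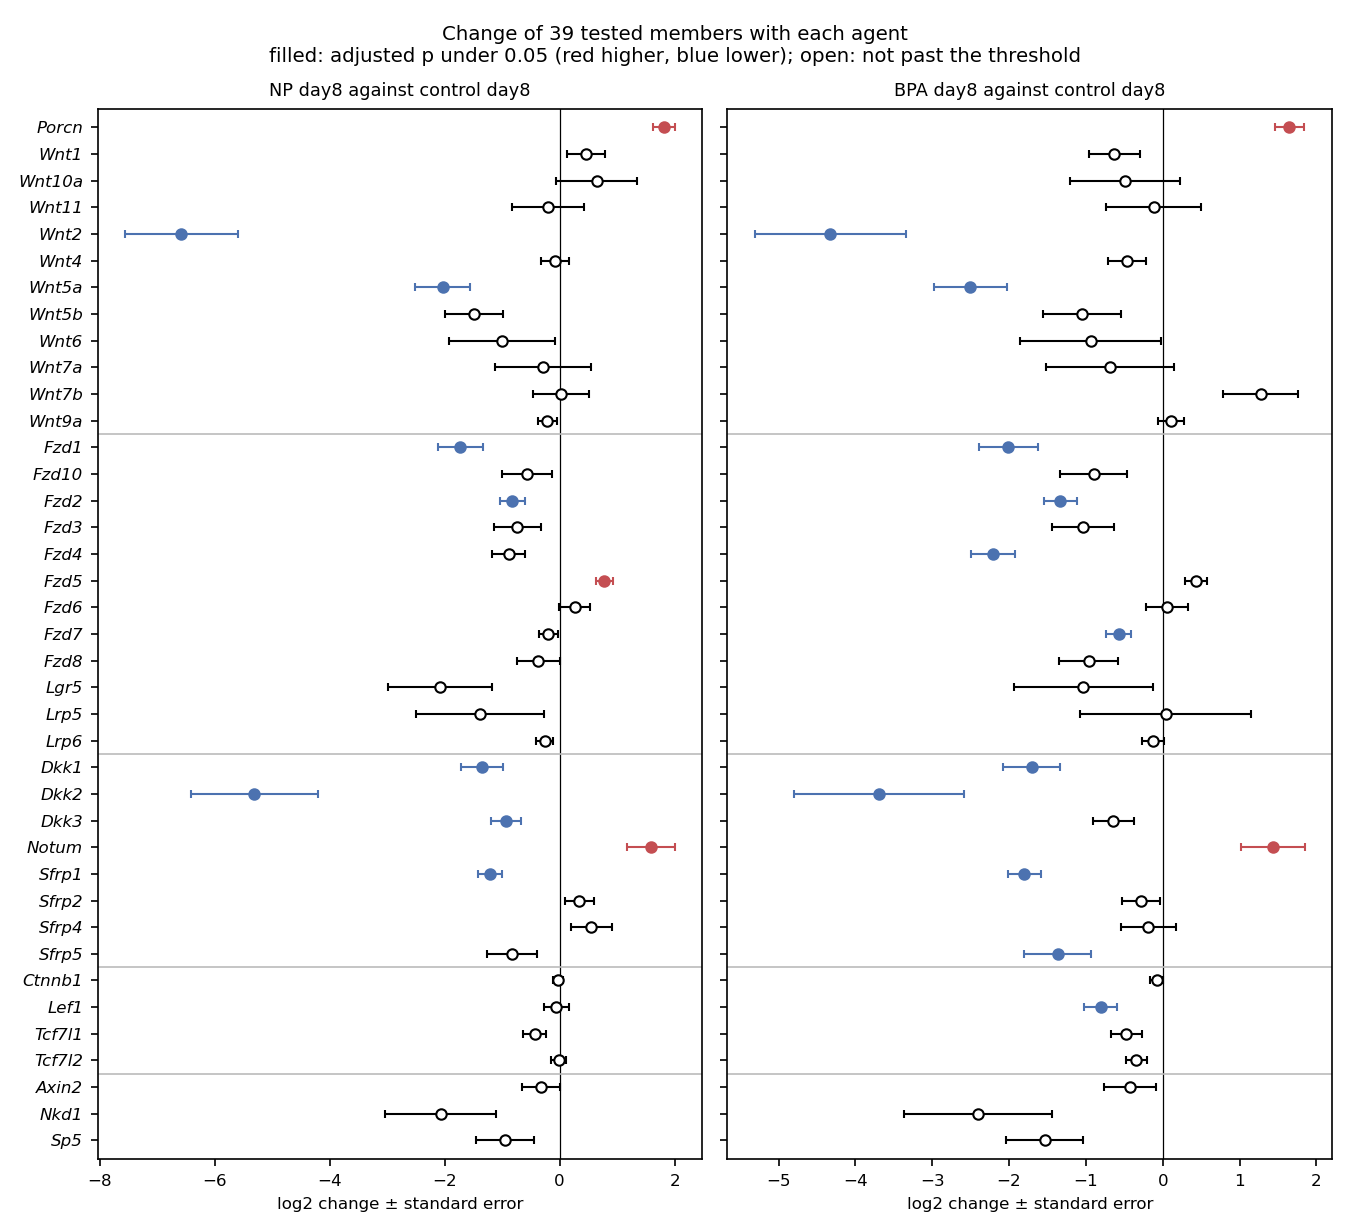
Log2 change of the 39 tested members with NP (left) and BPA (right), each against control day8 cells, with standard errors, and with a different horizontal range in each panel. Filled points had an adjusted p under 0.05, 3 higher and 8 lower with NP and 2 higher and 11 lower with BPA.

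Of the 4 nuclear effectors, only Lef1 passed the test with an agent. Lef1, a partner of β-catenin on DNA and itself a target of the pathway, read 7.43, 7.46 and 7.28 on NP day8 arrays, 6.71, 6.60 and 6.59 on BPA day8 arrays, 7.72, 7.76 and 6.85 on control day8 arrays and 7.49, 7.50 and 7.69 on control day0 arrays. The BPA arrays were lower than the other 9. Lef1 was 1.75-fold lower in BPA day8 than in control day8 cells (log2 change -0.81 ± 0.21, adjusted p = 0.0238, and up to 0.0878 without any of the BPA arrays or control day8 replicate 1 or 2). With NP the log2 change was -0.06 ± 0.21, with a 95% interval of -0.53 to 0.42.

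Tcf7l2 was at 7.46, 7.44 and 7.48 on NP day8 arrays, 7.0, 7.03 and 7.37 on BPA day8 arrays, 7.49, 7.65 and 7.30 on control day8 arrays and 5.49, 5.61 and 5.82 on control day0 arrays. Control day0 was the low group, and the arrays with an agent stayed near or within the range of control day8. Tcf7l2 was 3.58-fold higher in control day8 than in control day0 cells (log2 change 1.84 ± 0.14, adjusted p = 1.12e-05). It changed by -0.02 with NP (95% interval -0.32 to 0.29, adjusted p = 0.954) and by -0.34 with BPA (interval -0.65 to -0.04, adjusted p = 0.0997). Tcf7l1 gave 8.65, 9.30 and 8.48 on NP day8 arrays, 8.69, 8.76 and 8.86 on BPA day8 arrays, 8.99, 9.42 and 9.33 on control day8 arrays and 8.27, 8.33 and 8.36 on control day0 arrays. It rose by 0.92 ± 0.20 on the log2 scale in control day8 against control day0 cells (adjusted p = 0.00378). It changed by -0.44 with NP (adjusted p = 0.183) and -0.47 with BPA (adjusted p = 0.119). Ctnnb1 averaged 12.70 ± 0.08 in NP day8, 12.66 ± 0.02 in BPA day8, 12.73 ± 0.06 in control day8 and 12.45 ± 0.09 in control day0 cells. Its rise with differentiation (log2 change 0.28 ± 0.09, adjusted p = 0.0218) was lost when its 3 probe sets were averaged (adjusted p = 0.528) and without replicate 1 or 2 of either control group (up to 0.0815).

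Nkd1, which binds Dishevelled and damps the signal, read 5.51, 5.43 and 4.33 on NP day8 arrays, 4.27, 4.84 and 5.18 on BPA day8 arrays, 7.44, 7.32 and 6.73 on control day8 arrays and 4.09, 4.0 and -0.13 on control day0 arrays. No NP or BPA array reached the control day8 range. On its brightest probe set Nkd1 was at least 10.04-fold higher in control day8 than in control day0 cells (adjusted p = 0.00363). Its other probe sets had log2 changes of only -0.19 to 1.13. The mean of its probe sets changed by 1.54 (adjusted p = 0.0172). The differences with the agents, 4.20-fold lower with NP (adjusted p = 0.191) and 5.28-fold lower with BPA (adjusted p = 0.104), did not pass the test. Fitted on the compared groups alone, without the control day0 arrays, both passed on this brightest probe set (adjusted p = 0.0452 with NP and 0.0106 with BPA). The other Nkd1 probe sets changed by -1.18, 0.04 and -1.36 with NP and by -1.03, -0.69 and 0.55 with BPA. Sp5, a transcription factor and direct target of the pathway, was at 5.66, 5.48 and 4.03 on NP day8 arrays, 4.28, 4.99 and 4.16 on BPA day8 arrays, 5.93, 6.63 and 5.48 on control day8 arrays and 5.01, 4.45 and 5.76 on control day0 arrays. BPA arrays were below those of control day8 (log2 change -1.53 ± 0.50, adjusted p = 0.0546, or 0.0435 with the compared groups alone), and NP arrays overlapped them. Axin2, the widely used target and feedback gene, averaged 5.84 ± 0.34 in NP day8, 5.73 ± 0.36 in BPA day8, 6.16 ± 0.66 in control day8 and 5.69 ± 0.30 in control day0 cells, with overlapping arrays in every comparison of an agent or of differentiation and adjusted p from 0.276 to 0.581.

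NP and BPA were compared directly at day 8, with no dose given for either. No member passed the test, in either direction, with limma over all genes, where 1 gene in all (0.00765%) was higher in NP and none lower. At an unadjusted p under 0.05, 11 of the 39 members differed, against 8.38% of all genes, and 11 of 39 had arrays that did not overlap, against 17.0% of all genes. The median log2 difference, NP minus BPA, was 0.33 over the members, 0.30 with values raised to background and -0.02 over all genes. Fzd4 differed by 1.32 (95% interval 0.69 to 1.96, adjusted p = 0.313), Lef1 by 0.75 (0.28 to 1.23, adjusted p = 0.398), Sfrp1 by 0.59 (0.11 to 1.06, adjusted p = 0.508) and Fzd2 by 0.51 (0.03 to 0.99, adjusted p = 0.577). Those intervals lie above 0 before adjustment. They do not cover all of the 11 members, and Wnt7b went the other way, by -1.26. On another Fzd4 probe set of similar brightness the difference was only 0.33, and on the other Fzd2 probe sets 0.14 and 0.15. The other Sfrp1 probe sets above background differed by 0.36 to 0.59. For Porcn the interval was -0.26 to 0.59, for Wnt5a -0.59 to 1.53 and for Fzd1 -0.59 to 1.15. For Dkk1 it was -0.46 to 1.18 and for Notum -0.77 to 1.08. Each of these intervals includes 0, with values on both sides of it.

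**Figure D5:**
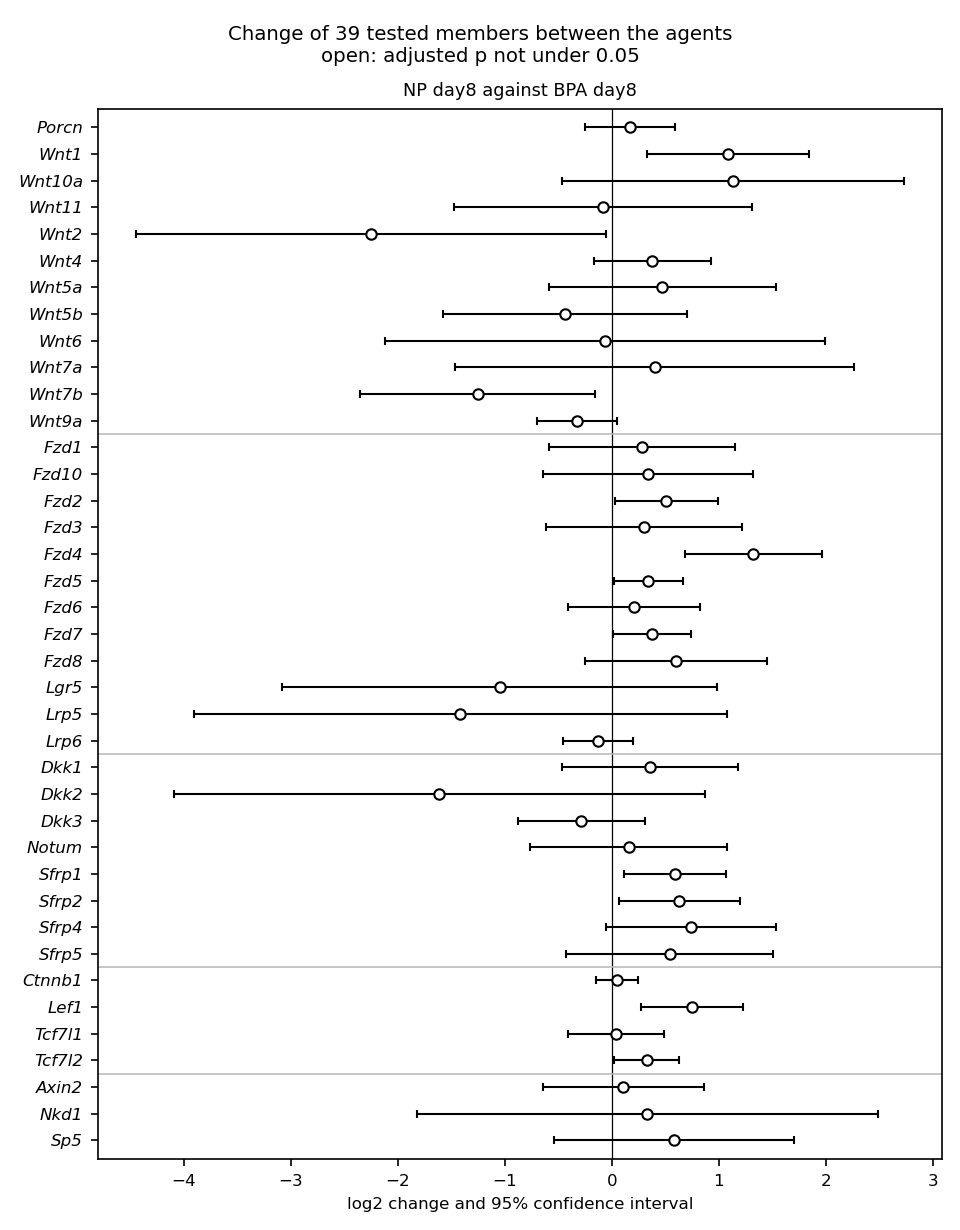
Log2 difference of the 39 tested members in NP day8 against BPA day8 cells, with 95% confidence intervals not adjusted for multiple tests. All points are open because no member had an adjusted p under 0.05, and the interval of Fzd4 is among those that lie wholly above 0.

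Other parts of the pathway moved in the same comparisons. Of 50 tested genes among 57 measured further components, 21 rose and 5 fell in control day8 against control day0 cells, against 28.3% and 20.5% of all genes. Their median log2 change was 0.61, and that of all genes was 0.12. The largest rises, all measured above background, were those of Frzb, a secreted Wnt inhibitor (log2 change 4.53 ± 0.24), Gpc3, a cell-surface proteoglycan (3.44 ± 0.22), and Ror1, a receptor of Wnt5a (2.87 ± 0.25). Those that fell included Tle4, a Groucho co-repressor (log2 change -1.74 ± 0.18), and 2 genes with a mean under background in control day8 cells, which have only a bound, Celsr3, a planar polarity cadherin at least 2.68-fold lower, and Lgr6, an R-spondin receptor at least 1.60-fold lower, whose adjusted p of 0.0338 rose to as much as 0.0972 without replicate 3 of control day0 or control day8, control day0 replicate 2 or control day8 replicate 1.

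Against control day8, 1 of these 50 components rose and 9 fell with NP, and 2 rose and 16 fell with BPA, with median log2 changes of -0.23 and -0.24. Wls, which carries Wnt proteins to the cell surface, fell with both (log2 change -1.35 ± 0.20 with NP, adjusted p = 0.00311, and -1.86 ± 0.20 with BPA, adjusted p = 0.000485). Rspo3, an R-spondin that strengthens Wnt signals, and Dact1, a Dishevelled-binding protein, fell with both agents. Rspo3 changed by -2.34 ± 0.55 with NP (adjusted p = 0.023) and -1.97 ± 0.55 with BPA (adjusted p = 0.0307). Dact1 changed by -1.86 ± 0.39 with NP (adjusted p = 0.0142) and -2.23 ± 0.39 with BPA (adjusted p = 0.00394). Without control day8 replicate 1 or 2, or NP replicate 2 or 3, both NP calls were lost (adjusted p up to 0.0827 and 0.0587). The BPA call of Rspo3 was lost without any control day8 array or BPA replicate 3 (up to 0.0899). Tle4 rose by 0.87 ± 0.18 with NP (adjusted p = 0.0151, and up to 0.0595 without control day8 replicate 1 or NP replicate 3) and by 0.84 ± 0.18 with BPA (adjusted p = 0.0107). Celsr3 was at least 2.92-fold higher with BPA (adjusted p = 0.0215, and up to 0.0743 without replicate 2 of either group, control day8 replicate 3 or BPA replicate 1).

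Among 21 tested of 25 measured further target genes of the pathway, 12 rose and 3 fell in control day8 against control day0 cells. The shares over all genes were 28.3% and 20.5%. The median log2 change of these target genes was 2.01, and that of all genes was 0.12. Those that rose included the homeobox gene Msx1 (log2 change 4.31 ± 0.73) and 2 genes with a mean under background in control day0 cells, which have only a bound, the homeobox gene Msx2 (at least 14.6-fold higher) and the bHLH gene Ascl2 (at least 4.41-fold higher). The 3 that fell were Fgf4 (log2 change -3.37 ± 0.39), the cyclin gene Ccnd1 (-1.93 ± 0.17) and the adhesion receptor gene Cd44 (-0.99 ± 0.21). With NP 1 rose and 5 fell, and with BPA 1 rose and 7 fell, with medians of -0.54 and -0.58. Twist1, a mesenchymal transcription factor, changed by -2.59 ± 0.37 with NP (adjusted p = 0.00284) and -3.02 ± 0.37 with BPA (adjusted p = 0.000794), and Ccn4, a matricellular gene, changed by -3.15 ± 0.32 with NP (adjusted p = 0.000761) and -2.73 ± 0.32 with BPA (adjusted p = 0.000671). Apcdd1, a membrane inhibitor of the pathway, changed by -2.03 ± 0.31 with NP (adjusted p = 0.00342). Msx1 fell by 2.36 ± 0.73 with BPA (adjusted p = 0.0446), a call lost without any of 9 arrays (up to 0.141), namely control day0 replicate 2, NP replicate 1 or 2, and every control day8 and BPA array. Fgf4, a growth factor of undifferentiated cells, was the gene that rose, by 2.86 ± 0.39 with NP and 3.24 ± 0.39 with BPA.

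Some cell type markers moved in the same comparisons as the Wnt members and others did not. All 8 pluripotency markers fell in control day8 against control day0 cells, and all 8 rose with each agent. Of the 8 fibroblast and feeder markers, 6 fell with each agent, while 3 rose and 3 fell in control day8 against control day0 cells. The 6 cardiac markers summed to 228 to 1524 on NP day8 arrays, 201 to 497 on BPA day8 arrays, 2894 to 4915 on control day8 arrays and 101 to 122 on control day0 arrays. With each agent 4 were lower, and with differentiation 5 were higher. The 5 vascular markers summed to 121 to 184 on NP day8 arrays, 148 to 176 on BPA day8 arrays, 412 to 471 on control day8 arrays and 35.6 to 76.6 on control day0 arrays. Tie1 was at background on all arrays of the NP, BPA and control day0 groups. Visceral endoderm markers summed to 10719 to 12054 on NP day8 arrays, 6143 to 9224 on BPA day8 arrays, 6387 to 11789 on control day8 arrays and 73.1 to 99.4 on control day0 arrays. With each agent 1 of 8 was lower. Of 6 primitive streak and nascent mesoderm markers, 5 were measured, and T, Mixl1 and Gsc were not tested. Tbx6 was at background on every control day8 array, and Gsc on every control day0 array. The 3 tested, Eomes, Mesp1 and Tbx6, passed limma's test in no comparison. At an unadjusted p under 0.05, 1 passed with NP and 1 with BPA. The 5 measured summed to 147 to 162 on NP day8 arrays, 132 to 149 on BPA day8 arrays, 86.5 to 121 on control day8 arrays and 56.7 to 140 on control day0 arrays. Of 5 neural markers, 1 rose with each agent and 2 fell with differentiation. Of 5 trophoblast markers, 1 rose and 1 fell with NP, 1 rose with BPA and 3 rose with differentiation. The part of these cell types in the changes of Wnt members was not tested.

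The 10 members that were not tested were Wnt2b, Wnt3, Wnt3a, Wnt8a, Wnt8b, Wnt9b, Wnt10b, Wnt16, Fzd9 and Dkk4. Of their 120 values, 24 were above background, and the highest was 5.70, for Wnt8b in control day8 cells. Wnt2b, Wnt3, Wnt10b and Wnt16 were at background on all 12 arrays. A group had all 3 arrays above background only for Wnt8a in NP day8 cells, at 3.58, 3.65 and 4.95, and for Fzd9 in control day0 cells, at 3.45, 4.23 and 3.48. Wnt8a, a ligand of the early streak, averaged 4.06 ± 0.77 in NP day8, 2.28 ± 1.64 in BPA day8, 0.80 ± 1.99 in control day8 and 3.72 ± 0.36 in control day0 cells, where the control day8 values were all at background. The highest mean over 12 arrays among untested members was 2.71 and the lowest among tested ones was 2.87, so the line between them is thin.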

How the data were processed

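RNA from 12 samples was hybridised to Affymetrix arrays. The values deposited by the authors are log2 signals per probe set, made with MAS5 per the submitters' processing notes; its version and scaling target are not given in the sources used here. On each array the mean of the unlogged signals, trimmed of 2% at each end, was 100.0. The table held 45101 probe sets: 64 controls, 34945 listed with 1 gene, 932 with several and 9160 not listed in the platform annotation. Values were used as deposited.

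The brightest 60% of probe sets were kept (27023), and the brightest probe set of each gene, by its mean over the arrays, stood for it (13067 genes). In R 4.3.3, limma 3.58.1 fitted a mean per group to the 12 arrays (8 residual and 1.57 prior degrees of freedom), with 2-sided tests, Benjamini-Hochberg adjustment and a threshold of 0.05. The code was tested on simulated data. An exact permutation test of 3 arrays against 3 cannot give a p below 0.1. The number of arrays limits precision. Where a group's mean or all its arrays lay at or under background, the fold is a bound, with values under 3.41 raised to it.

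The members and all gene lists were chosen with earlier results of these data known. All 12 values are printed for up to 4 members per role with the largest changes among agent calls and 2 more among differentiation calls, and every other called member is given with its change. Dkk3, Sp5 and Wnt7b were added to these after their values were seen. Further pathway genes are the 3 with the largest fitted changes per direction, some of them bounds. Alternatives were the filter, the normalization, the treatment of several probe sets, the groups in the fit, the variance prior, a replicate block and leaving out each array. Promoters come from RefSeq's table. All 49 members matched RefSeq by symbol.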

Additional observations from a re-analysis of the deposited data

How the results depend on the processing

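The calls in the 4 comparisons were recounted under 9 other settings and on leaving out each of the 12 arrays, and no member reversed its direction where it was called. On leaving out an array, 14 to 22 members rose and 3 or 4 fell in control day8 against control day0 cells, 2 or 3 rose and 2 to 11 fell in NP day8 against control day8 cells, 1 to 3 rose and 7 to 13 fell in BPA day8 against control day8 cells, and 0 passed in NP day8 against BPA day8 cells. The low counts came without control day8 replicate 1 (14 rising with differentiation and 2 falling with NP), without NP replicate 3 (also 2 falling with NP) and, for the 7 falling with BPA, without control day8 replicate 1 or 2 or BPA replicate 1. With BPA, 1 member rose with no filter on dim probe sets and 4 rose with a trended and robust variance prior. With NP, 5 members fell with no filter, 5 fell with the mean of a gene's probe sets, and 4 fell when the other groups were kept out of the fit. The causes were not tested.

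Calls kept with every array left out and under every setting that tested the gene numbered 15 of 26 for differentiation. There were 2 of 11 for NP (Porcn and Wnt2) and 6 of 13 for BPA (Porcn, Wnt5a, Fzd2, Fzd4, Dkk1 and Sfrp1). Wnt2 had passed the brightness filter through control day8, the group in which it was high. That filter was not redone with an array left out, so the kept call of Wnt2 is not taken as support. Wnt2 and, among the 15, Wnt5b were tested in only 8 of the 9 settings. Both were too dim for the setting that kept 40% of probe sets. With BPA, Wnt2 missed the threshold when only the compared groups were fitted (adjusted p = 0.0605), as did Fzd1 with the mean of its probe sets (adjusted p = 0.0852). That fit of compared groups also brought members past the threshold with BPA, namely Wnt6, Wnt7b, Fzd8, Lgr5, Nkd1 and Sp5, and Nkd1 with NP. Quantile normalization moved the median of all genes in control day8 against control day0 cells by -0.11, and 19 members then rose and 4 fell. With the replicate number as a block, 21 rose and 4 fell in control day8 against control day0 cells, 3 rose and 7 fell with NP, 2 rose and 10 fell with BPA, and 0 differed between NP and BPA. The numbers were not taken to pair the samples, since same-numbered arrays deviated together with correlations of only -0.01 to 0.08, and not every array correlated best with its own number. Signals under the background limit what can be said of Wnt2, Dkk2 and the untested ligands.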

Other observations

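Some Wnt genes lie beside each other in RefSeq's GRCm38.p6 annotation, and the neighbours did not always share a call. Wnt6 and Wnt10a are neighbours on chromosome 1, where Wnt6 rose in control day8 against control day0 cells and Wnt10a had a log2 change of -0.34 ± 0.71 (adjusted p = 0.727). Wnt1 and Wnt10b are neighbours on chromosome 15, where Wnt1 rose and Wnt10b was at background on all 12 arrays. On chromosome 11, Wnt9a lies beside Wnt3a and Wnt9b beside Wnt3. Wnt3a averaged 3.98 ± 0.99 in control day8 cells and 1.89 ± 2.02 in control day0 cells, while Wnt9a was lower in control day8 cells. Without the filter on dim probe sets, 1 of the 10 untested members was called in control day8 against control day0 cells (Wnt8b) and 2 in BPA day8 against control day8 cells (Wnt3 and Wnt3a). Wnt3 was at background in both of those groups, so its call has no fold. Wnt8b was at background on every control day0 array and Wnt3a on every BPA day8 array, and each also on 1 control day8 array. Their differences are therefore only bounds.

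Genes read by several probe sets give a second view of the same RNA. Among called members with more than 1 probe set above background, all probe sets moved the same way in 11 of 14 for differentiation, 6 of 6 for NP and 5 of 5 for BPA. The exceptions were Fzd3, Ctnnb1 and Nkd1. Nkd1 had 4 probe sets, whose log2 changes in control day8 against control day0 cells ran from -0.19 to 4.51.

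The arrays of 4 of 39 tested members with NP (10.3%) and 6 of 39 with BPA (15.4%) lay outside both control groups, against 6.15% and 10.9% of all genes tested. In NP day8 cells Porcn lay above, and Wnt2, Dkk2 and Dkk3 lay below, with Wnt2 and Dkk2 at background on every NP array. For Wnt2, 2 of the 3 control day0 arrays were at background as well, so its order below that group cannot be relied on. In BPA day8 cells Porcn and Wnt7b lay above, and Wnt3, Lgr5, Dkk2, Sfrp1 and Lef1 lay below, with Lgr5 and the untested Wnt3 at background in BPA day8 cells.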
